A study of Mus musculus with 6 samples.

Results

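Wnt pathway genes were read on 6 arrays of bone marrow stromal cells (BMSCs), the adherent cells of marrow that can form osteoblasts or adipocytes. The 59 genes, listed by role in the pathway and not by their values, are 13 ligands, 14 receptors and co-receptors, 10 antagonists, 7 genes of the R-spondin arm, 9 cytoplasmic mediators, 4 nuclear factors and 2 genes of Wnt secretion. Of these, 58 had a probe set that names a single gene, among 19938 tested genes. Tcf7, which encodes a nuclear partner of beta-catenin, had none and was not analysed here. The 3 WT arrays hold cells of wild-type animals, and the 3 KO188 arrays those of animals labelled as knockouts of miR-188, the microRNA in the series title. All animals were C57BL/6 and 6 months old. Both groups were grown in the same osteogenic medium, which held 0.05 mM ascorbate-2-phosphate, 10 mM beta-glycerophosphate, dexamethasone at 100 nM and fetal calf serum at 10%. The series title places the work on the choice between osteoblast and adipocyte fates with age. The labels state neither which bases of the locus were removed nor whether each array stands for its own mouse. The sample titles call the 3 arrays of each group biological replicates, without saying more. The p-values therefore measure the spread between these samples, which may not be the spread between mice.

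The microRNA is given here because it defines the genotype. Both mature strands come from RefSeq (build GRCm38.p6, minus strand, chrX:7248031-7248051 for the 5p strand and chrX:7247992-7248012 for the 3p strand), with the seed, bases 2 to 8, in capitals.
miR-188-5p: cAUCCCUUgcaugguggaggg
miR-188-3p: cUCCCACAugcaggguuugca

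The probe set annotated to Mir188 read 7.15, 7.13 and 7.16 in WT and 7.03, 7.13 and 7.09 in KO188, with overlapping groups (change -0.06, limma adjusted p = 0.24). The labels do not say whether its probes lie in the deleted bases, so it does not check the genotype.

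Wnt ligands are secreted lipid-modified proteins. Porcupine adds the lipid, and the carrier Wntless takes them to the cell surface, where they bind Frizzled receptors together with the co-receptors Lrp5 and Lrp6. In the canonical branch this stops the Axin, Apc and Gsk3 complex from marking beta-catenin for degradation, and beta-catenin then acts with Tcf and Lef factors on DNA. Secreted Frizzled-related proteins bind ligands, Dickkopfs block Lrp5 and Lrp6, and R-spondins protect Frizzleds by drawing off the ubiquitin ligases Znrf3 and Rnf43. In marrow stroma the canonical branch is known to favour bone formation over fat cell formation.

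Each gene has 1 log2 value per array, and a log2 difference of 1 is a doubling. The array medians lay between 7.43 and 7.44 in WT and between 7.46 and 7.50 in KO188, so small differences depend on how the arrays are scaled. The median SD of the 58 genes was 0.037 in WT and 0.038 in KO188 (n = 3 each). A level guide for silent genes came from 1190 genes of olfactory and vomeronasal receptors, whose 95th percentile was 6.73. Stromal markers such as Col1a1 (12.90 ± 0.02 in WT, SD, n = 3), Col1a2 and Sparc were high. Eng (7.78 in WT, 7.82 in KO188) and Thy1 (6.88, 6.79) lay nearer the guide, and Runx2, Bglap and Spp1 were not measured. Of the 10 measured on the stromal and osteoblast list 6 rose, among them Alpl (2.08) and Pdgfra (0.87), with list means of 9.74 to 9.77 over the WT arrays and 10.12 to 10.14 over the KO188 arrays. Of 10 macrophage markers 4 lay under the guide in both groups (Ptprc, Csf1r, Adgre1 and Itgam), Mpeg1 did so in WT, and Cd68 (8.39 in WT, 8.54 in KO188), Cd14 (7.85, 7.58), Cx3cr1 (7.55, 7.47), Fcgr1 (7.25, 7.28) and Tyrobp (7.02, 7.03) lay above it. Of 6 endothelial markers 4 lay under it, Pecam1 among them, while Vwf (7.38 in both) and Cdh5 (6.85, 6.76) lay above it. Of the osteoblast markers, Ibsp also lay under it, and Sp7 did so in WT. Marker lists of other cells moved as follows: 1 of 10 macrophage markers rose (Mpeg1, 1.32), with array means over the list of 6.77 to 6.82 in WT and 6.88 to 6.91 in KO188. Of 7 adipocyte markers 2 fell, Pparg (-1.86) and Fabp4 (-0.33), with list means of 7.24 to 7.26 against 6.90 to 7.07. Adipoq and Lep lay under the guide in both groups, and Pparg, Fabp4 (8.03, 7.70), Plin1 (7.75 in both), Cidec (7.38 in both) and Retn (6.80, 6.88) above it. Of 5 smooth muscle markers 2 fell, Cnn1 (-0.73) and Tagln (-0.42), with list means of 10.02 to 10.04 against 9.77 to 9.78. Of 6 endothelial markers 1 rose (Kdr, 0.24, under the guide), and of 6 lymphoid markers 0 passed limma's test (0 at an unadjusted p under 0.05), with list means of 6.42 to 6.48 and 5.91 to 6.13 over the 6 arrays. Their part in the Wnt results was not tested. In such bulk samples fewer cells of a type and less RNA per cell cannot be told apart, and neither can genotype and a culture difference shared by the KO188 samples.

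Of the 58 Wnt genes, 22 were higher in KO188, 5 were lower and 31 did not pass (limma, adjusted p under 0.05). This is 46.6% of the measured genes, 37.9% higher and 8.62% lower, where 29.8% of all tested genes passed, 13.3% higher and 16.5% lower. The median change was 0.06 on the log2 scale (mean 0.11), against -0.0053 (mean 0.01) over all tested genes. Dim genes pass less often: of the 53 Wnt genes above the guide in at least 1 group 50.9% passed, 41.5% higher and 9.43% lower, beside 40.9% of all 14045 such genes, 18% higher and 23% lower. The KO188 and WT arrays did not overlap in 34 of the 58 genes, or 58.6%, where 41.5% of all tested genes did not overlap. The split between directions depended on scaling. With each array centred on its median, 17 Wnt genes were higher and 9 lower, so that the higher share of their calls went from 81.5% to 65.4%, and among all genes the higher share of the calls went from 44.5% to 30.8%. This centring, on the median of all probe sets, moved the median change of all tested genes from -0.0053 to -0.049. That of the Wnt genes went from 0.06 to 0.01.

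**Figure D1:**
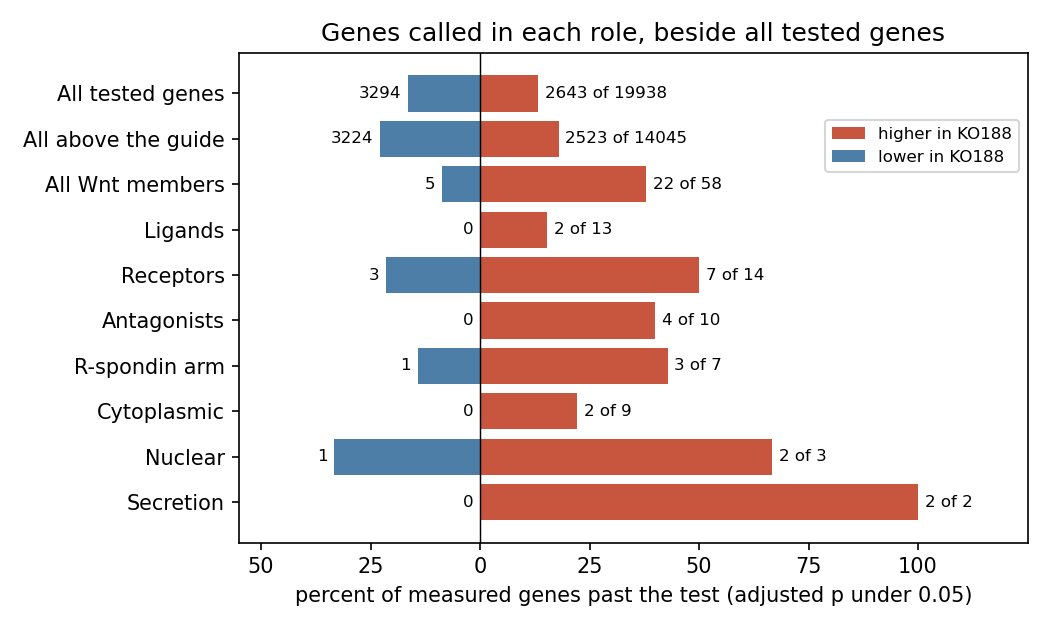
Bars give the percent of measured genes past limma's test (adjusted p under 0.05) that were higher (right, red) or lower (left, blue) in KO188, for all tested genes, all tested genes above the level guide, all 58 Wnt genes and each role, with the counts beside the bars. On the deposited values higher calls outnumber lower ones in every Wnt role (22 against 5 in all). Over all tested genes lower calls are the more frequent (3294 against 2643). With each array centred on its median, higher calls did not outnumber lower ones among the ligands (1 against 1) or the cytoplasmic genes (0 against 1).

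Most ligand genes did not pass the test. Of the 13 measured, 2 were higher in KO188 and 0 lower (3 of the 13 had an unadjusted p under 0.05). This share of 15.4% lies below the 29.8% of all tested genes and the 40.9% of those above the guide, where 11 of the 13 lay. Wnt10b, which encodes a canonical ligand known to promote bone formation, had log2 values of 8.69, 8.69 and 8.70 in WT and 8.85, 9.02 and 8.94 in KO188. All KO188 arrays were above all WT arrays. The WT SD was 0.0018, but 2 of the WT arrays were listed at exactly the same value, so it may be smaller than the true spread. The rise was 0.24 (SE 0.045, limma adjusted p = 0.0071), or 1.18-fold. Wnt5a, the main noncanonical ligand, was 9.57, 9.53 and 9.60 in WT and 9.76, 9.73 and 9.65 in KO188, again with no overlap (change 0.15, SE 0.038, adjusted p = 0.026). The Wnt5a call was lost with the arrays centred (0.11, adjusted p = 0.086) and without WT replicate 1 (0.078), WT replicate 2 (0.088), KO188 replicate 1 (0.069) or KO188 replicate 2 (0.077).

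The other 11 ligand genes had changes from -0.11 to 0.10, 5 above 0 and 6 below. Wnt4 gave 0.10 with a 95% interval of -0.0066 to 0.22 on the probe set used, and -0.07 on its dimmer probe set (adjusted p = 0.44 with every probe set tested). Wnt1 (-0.11, adjusted p = 0.077) lay under the guide in both groups, as did Wnt2b (-0.02). Wnt1 passed with the arrays centred (-0.16, adjusted p = 0.030) and without KO188 replicate 3 (adjusted p = 0.036). Wnt7b (-0.08, adjusted p = 0.24) passed with quantile normalization (-0.13, adjusted p = 0.047). Changes of Wnt2 (0.04), Wnt5b (0.01), Wnt6 (-0.05), Wnt9a (0.04), Wnt10a (0.07), Wnt11 (-0.02) and Wnt16 (-0.0080) had 95% intervals that included 0. Over all 11 genes the intervals reached from -0.21 to 0.23.

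The genes needed to release any Wnt were both higher. Both lay above the guide, where 40.9% of all genes passed, 18% higher (29.8% and 13.3% of all tested genes). Porcn, which encodes the acyltransferase Porcupine, rose from 9.03 ± 0.04 to 9.27 ± 0.04 (SD, n = 3 each), a change of 0.24 (SE 0.035, adjusted p = 0.0027). Wls, the gene of the carrier Wntless, rose from 12.17 ± 0.0041 to 12.32 ± 0.02, a change of 0.15 (SE 0.025, adjusted p = 0.0038). The groups did not overlap in either gene, and both calls held in all 14 alternatives tried.

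Receptors held the largest number of calls of any role. Of 14 measured, 7 rose, 3 fell and 4 did not pass, which is 71.4% called beside 29.8% of all tested genes and 40.9% of those above the guide, where 13 of the 14 lay. The arrays of the groups did not overlap in 13 of the 14, all but Fzd4, where 41.5% of all tested genes did not overlap. Among the 13 were Lrp4, Lrp5 and Ror1, which did not pass. Fzd8 had the largest rise of the receptors. Its values were 9.46, 9.35 and 9.35 in WT and 10.03, 9.99 and 10.05 in KO188, a change of 0.64 (SE 0.040, adjusted p = 6.8e-05), or 1.55-fold. The lowest KO188 array stood well above the highest WT array. Fzd5 had 8.44, 8.31 and 8.53 in WT and 8.88, 8.95 and 8.85 in KO188, with a wider WT spread and no overlap (change 0.46, SE 0.058, adjusted p = 0.0014). Fzd7 went from 10.30, 10.23 and 10.29 to 10.69, 10.65 and 10.67, a rise of 0.40 (SE 0.030, adjusted p = 0.00015). For Fzd1, values of 10.22, 10.23 and 10.23 in WT stood against 10.60, 10.63 and 10.55 in KO188 (change 0.36, SE 0.029, adjusted p = 0.00019). In both genes every KO188 array was higher than every WT array. Fzd2 showed a smaller rise of 0.12 (adjusted p = 0.013), which did not pass with the arrays centred (0.07, adjusted p = 0.10).

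A pair of Frizzled genes went the other way. Fzd3 had 8.08, 8.03 and 8.15 in WT and 7.72, 7.64 and 7.72 in KO188, all KO188 arrays below all WT arrays (change -0.40, SE 0.040, adjusted p = 0.00055), or 1.32-fold lower. Fzd6 fell from 10.00 ± 0.02 to 9.77 ± 0.0027 (SD, n = 3 each; change -0.22, adjusted p = 0.00080). Fzd4 did not pass (0.0060, 95% interval -0.08 to 0.09), and its sign turned with the arrays centred (-0.038) or quantile normalized (-0.048). Frizzleds fall into groups by protein sequence, and after the values were seen the 8 genes were set beside that grouping. The relatives Fzd1, Fzd2 and Fzd7 rose (0.12 to 0.40), the pair Fzd5 and Fzd8 rose (0.46 and 0.64), and the pair Fzd3 and Fzd6, known for planar cell polarity, fell. Fzd4 belongs with Fzd9 and Fzd10, and these also did not pass (-0.07 and 0.06).

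**Figure D2:**
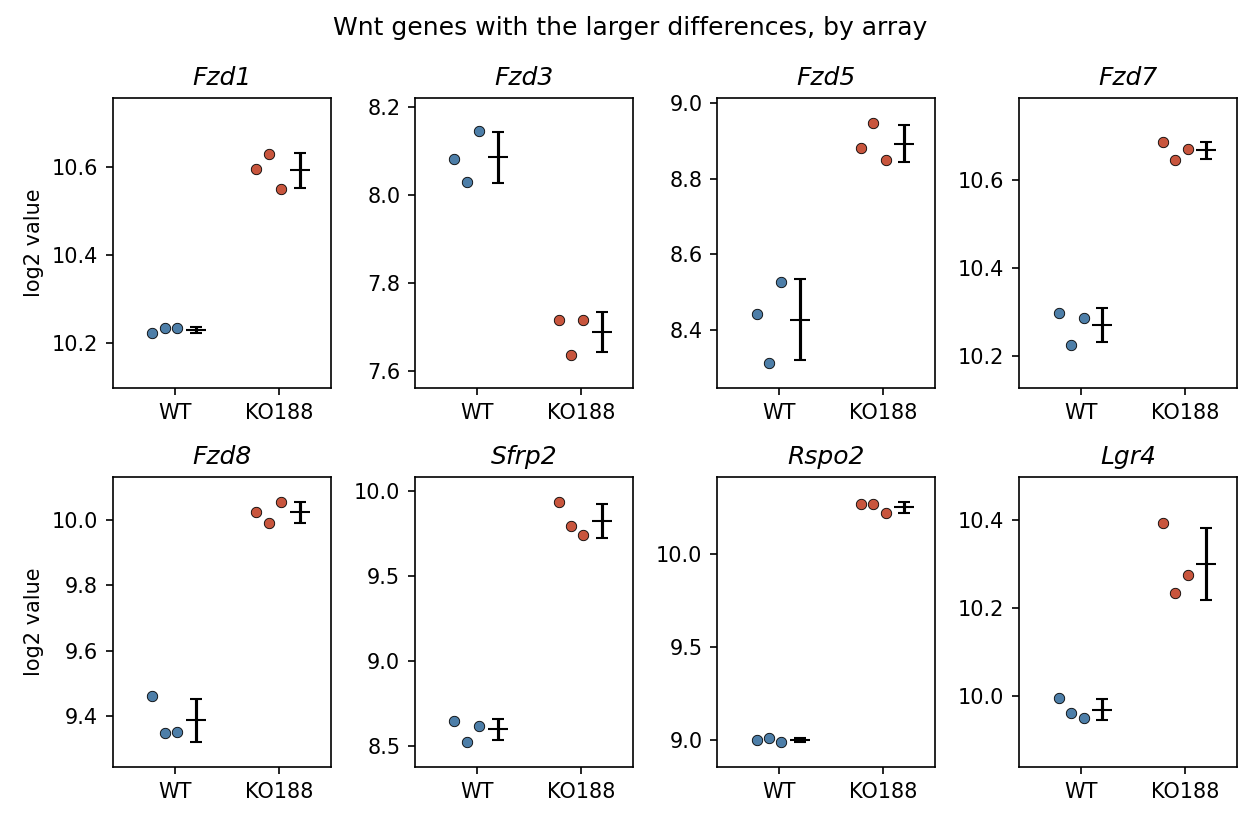
Each panel plots the log2 value of 1 gene on the 3 WT (blue) and 3 KO188 (red) arrays, with the group mean and SD beside the points, for the 8 Wnt genes past the test with a log2 change of at least 0.3 in size. The vertical ranges differ between panels and do not start at 0. In all 8 genes the groups are apart, and Fzd3 alone is lower in KO188.

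The upstream windows of Fzd1, Fzd5 and Fzd7 are shown because these Frizzled genes rose and have 1 start site in the RefSeq promoter table (GRCm38.p6). Fzd2 and Fzd8, which also rose, have no window in it. The windows shown cover the 250 bases before the start, 5′ to 3′ along the gene. Capitals mark matches, on either strand, to the Tcf and Lef core CTTTGA or the TATA box TATAAA, which do not overlap each other here. The windows are chr5:4758217-4758466 (minus strand) for Fzd1, chr1:64737751-64738000 (minus strand) for Fzd5 and chr1:59481897-59482146 (plus strand) for Fzd7.
Fzd1: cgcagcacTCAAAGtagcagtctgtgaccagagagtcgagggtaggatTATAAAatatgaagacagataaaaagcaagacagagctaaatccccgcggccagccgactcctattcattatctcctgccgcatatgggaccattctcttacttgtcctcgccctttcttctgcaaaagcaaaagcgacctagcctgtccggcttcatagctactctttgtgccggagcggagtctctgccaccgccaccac
Fzd5: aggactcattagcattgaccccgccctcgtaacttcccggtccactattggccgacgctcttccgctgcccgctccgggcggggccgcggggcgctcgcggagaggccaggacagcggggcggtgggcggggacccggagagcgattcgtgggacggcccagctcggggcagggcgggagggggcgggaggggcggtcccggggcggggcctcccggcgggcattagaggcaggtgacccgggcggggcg
Fzd7: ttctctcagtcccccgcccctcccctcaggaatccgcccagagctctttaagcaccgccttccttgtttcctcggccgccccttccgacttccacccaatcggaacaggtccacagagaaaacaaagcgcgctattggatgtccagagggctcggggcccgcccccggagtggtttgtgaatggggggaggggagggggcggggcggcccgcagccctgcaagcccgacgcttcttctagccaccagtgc

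Fzd1 held 1 match to the Tcf and Lef core, 242 to 237 bases before the start on the opposite strand, and 1 TATA match 202 to 197 bases before it. Fzd5 and Fzd7 held neither motif, and their GC contents of 76.4% and 65.2% lay above the 52.4% median of the 32851 windows in the table, while Fzd1 had 51.2%. Over all windows, 13.8% held the Tcf and Lef core and 12.4% the TATA box. Of the 59 Wnt genes 38 had a window. The core was found in 1 of 12 genes that were higher, 1 of 2 that were lower and 6 of 23 that did not pass. The remaining gene of the 38 is Tcf7. A gene with several windows counted if any of them matched, so these counts are not shares of windows. Lef1, the lower gene with the core, has 4 windows and matched only in the most downstream one. A match of letters is a description of the window and not a binding site.

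Among the co-receptors, Lrp6, which pairs with Frizzleds in the canonical branch, rose from 10.96 ± 0.0097 to 11.15 ± 0.03 (SD, n = 3 each; change 0.19, SE 0.027, adjusted p = 0.0023). Its relative Lrp5, a gene known for its effect on bone mass, was 10.06 ± 0.04 and 9.98 ± 0.01 and did not pass (-0.08, adjusted p = 0.10). With the arrays centred Lrp5 was lower (-0.12, adjusted p = 0.025), and it passed with the dimmer genes left out (adjusted p = 0.037). Lrp4, the co-receptor that anchors sclerostin, did not pass (0.08, adjusted p = 0.075), except with the dimmer genes left out (adjusted p = 0.024). Of the receptors that bind Wnt5a and its like outside the canonical branch, Ror2 rose by 0.14 (adjusted p = 0.017), a call lost with the arrays centred (0.09, adjusted p = 0.11) and without WT replicate 1 (0.13, adjusted p = 0.064). Ryk fell by 0.24 (SE 0.025, adjusted p = 0.00062), from 12.39 ± 0.02 to 12.15 ± 0.0019. Ror1 lay under the guide in both groups (0.10, adjusted p = 0.073).

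**Figure D3:**
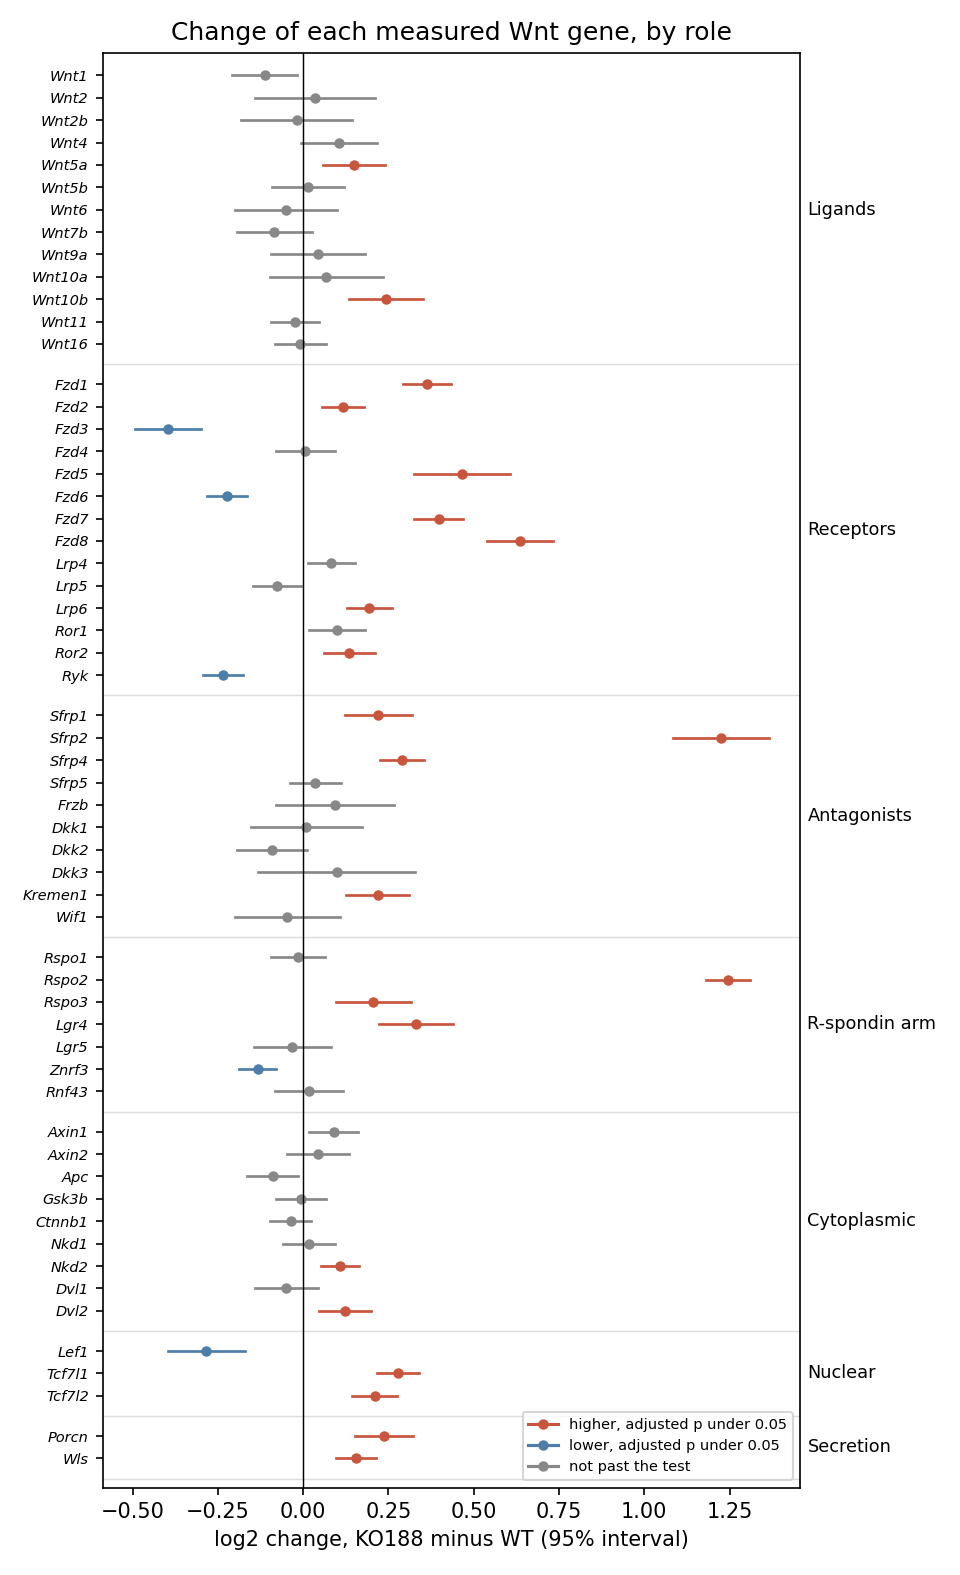
Points give the log2 change (KO188 minus WT, in log2 units) of each of the 58 measured Wnt genes and lines its 95% interval from limma, grouped by role and coloured by the test adjusted over all tested genes (red higher, blue lower, grey not past it). Intervals are per gene and not adjusted, so some grey lines stop short of 0. Sfrp2 (1.22) and Rspo2 (1.24) stand apart from the other genes, and the receptors spread to both sides, from -0.40 to 0.64.

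Of 10 genes of Wnt antagonists 4 rose, 0 fell and 6 did not pass (4 of the 10 had an unadjusted p under 0.05). The 40% called is near the 40.9% of all genes above the guide, where 9 of the 10 lay. The direction differed: all 4 calls were higher, where 18% of all genes above the guide were higher and 23% lower. Sfrp1, Sfrp2 and Sfrp4 rose, and no Dickkopf gene passed. Sfrp2, whose product binds Wnts outside the cell, had values of 8.65, 8.53 and 8.62 in WT and 9.94, 9.80 and 9.74 in KO188. The change was 1.22 (SE 0.059, adjusted p = 2.0e-05), or 2.34-fold, with the groups far apart. Its range over the 14 alternatives was 1.17 to 1.27. Sfrp4, mutated in a human bone disorder with thin cortices, rose from 7.89 ± 0.03 to 8.18 ± 0.01 (SD, n = 3 each; change 0.29, adjusted p = 0.00035), and Sfrp1 from 9.64 ± 0.06 to 9.86 ± 0.04 (change 0.22, adjusted p = 0.0069). Sfrp5 (0.04) and Frzb (0.09, under the guide in both groups) did not pass. Frzb passed without KO188 replicate 2 (0.18, adjusted p = 0.026).

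Kremen1, the gene of a membrane protein that works with Dickkopfs to remove Lrp6 from the surface, rose from 10.23 ± 0.06 to 10.45 ± 0.04 (SD, n = 3 each; change 0.22, SE 0.038, adjusted p = 0.0057). The Dickkopf genes did not pass, with a difference of 0.0092 for Dkk1 (95% interval -0.15 to 0.17), -0.09 for Dkk2 (-0.19 to 0.01) and 0.10 for Dkk3, a divergent relative (-0.13 to 0.33). Dkk2 was lower with the arrays centred (-0.14, adjusted p = 0.032) and with quantile normalization (-0.13, adjusted p = 0.029). Wif1, which encodes a further secreted Wnt-binding protein, was 6.97 on all 3 WT arrays and 6.85, 7.08 and 6.86 in KO188, so the groups overlapped (-0.05, adjusted p = 0.65). Without KO188 replicate 2 it was -0.12 (adjusted p = 0.020).

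The R-spondin arm held the gene with the lowest p of the whole set. Rspo2, which encodes an amplifier of Wnt signalling, had 9.00, 9.01 and 8.99 in WT and 10.26, 10.27 and 10.21 in KO188. The SD was 0.01 in WT and 0.03 in KO188, far below the change of 1.24 (SE 0.027, adjusted p = 4.6e-07), or 2.37-fold. Rspo3 rose by 0.21 (SE 0.046, adjusted p = 0.015) at a low level, from 6.72 in WT, just under the guide, to 6.93 in KO188. It did not pass when WT replicate 2 was left out (adjusted p = 0.062), nor when WT replicate 3 (0.055) or KO188 replicate 1 (0.055) was. Rspo1 did not pass (-0.02, 95% interval -0.10 to 0.06).

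Of the R-spondin receptors, Lgr4 went from 10.00, 9.96 and 9.95 in WT to 10.39, 10.23 and 10.28 in KO188. Every KO188 array was higher, with 1 of them above the other two, and the change was 0.33 (SE 0.045, adjusted p = 0.0019). Lgr5, a stem cell marker of other tissues, lay under the guide in both groups (-0.03, adjusted p = 0.67). Znrf3, the gene of a ligase that removes Frizzleds from the surface and that R-spondins counter, fell from 10.12 ± 0.0047 to 9.99 ± 0.0046 (SD, n = 3 each; change -0.13, SE 0.023, adjusted p = 0.0050). Its relative Rnf43 did not pass (0.02, 95% interval -0.08 to 0.12). In all, 3 of the 7 genes of this arm rose and 1 fell. This is 57.1% called, beside 29.8% of all tested genes and 40.9% of those above the guide, where 6 of the 7 lay.

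Of 9 genes of the cytoplasmic relay, 2 rose, 0 fell and 7 did not pass (4 of the 9 had an unadjusted p under 0.05). This is 22.2% called, beside 29.8% of all tested genes and 40.9% of those above the guide, where all 9 lay. For Ctnnb1, the gene of beta-catenin itself, the WT mean was 12.62 ± 0.02 and the KO188 mean 12.59 ± 0.02 (SD, n = 3 each; change -0.04, 95% interval -0.10 to 0.02). The kinase gene Gsk3b (-0.0068, interval -0.08 to 0.07) and the scaffold genes Axin1 (0.09, adjusted p = 0.070) and Apc (-0.09, adjusted p = 0.080) did not pass either. Axin1 passed with the dimmer genes left out (adjusted p = 0.022) and with an intensity trend (0.032), and Apc did so in those (0.026 and 0.036) and with the arrays centred (-0.13, adjusted p = 0.017). Axin2, a feedback scaffold and the most used readout of canonical signalling, had 7.42, 7.51 and 7.51 in WT and 7.57, 7.51 and 7.49 in KO188. Its groups overlapped (0.04, 95% interval -0.05 to 0.13, adjusted p = 0.45).

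The genes that rose in this role were Dvl2 (0.12, SE 0.032, adjusted p = 0.027), of the Dishevelled adaptors that link Frizzleds to the complex, and Nkd2 (0.11, SE 0.023, adjusted p = 0.013), a Dishevelled-binding inhibitor. Neither call held with the arrays centred (0.08, adjusted p = 0.13 for Dvl2, and 0.06, adjusted p = 0.14 for Nkd2). Nkd2 also failed with quantile normalization (0.04, adjusted p = 0.33), and Dvl2 without any of WT replicates 1 and 2 and KO188 replicates 1, 2 and 3 (adjusted p = 0.057 to 0.092). Dvl1 (-0.05, adjusted p = 0.41) and Nkd1 (0.02, adjusted p = 0.73) did not pass.

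All 3 measured nuclear factors passed the test, 2 higher and 1 lower. All 3 lay above the guide, where 40.9% of all genes passed (29.8% of all tested genes). Tcf7l1, the gene of a family member that mainly represses targets, rose from 9.17 ± 0.0074 to 9.45 ± 0.02 (SD, n = 3 each; change 0.28, SE 0.025, adjusted p = 0.00033). Tcf7l2, which serves as activator or repressor, rose from 10.40 ± 0.02 to 10.61 ± 0.02 (change 0.21, SE 0.027, adjusted p = 0.0016). Lef1, an activator and itself a Wnt target, fell by 0.28 (SE 0.047, adjusted p = 0.0043), or 1.22-fold. Its WT values were 9.00, 8.82 and 8.92, and all 3 KO188 arrays were listed at 8.63, equal to the last deposited digit, so the KO188 SD of Lef1 is 0 and its true spread is not known.

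**Figure D4:**
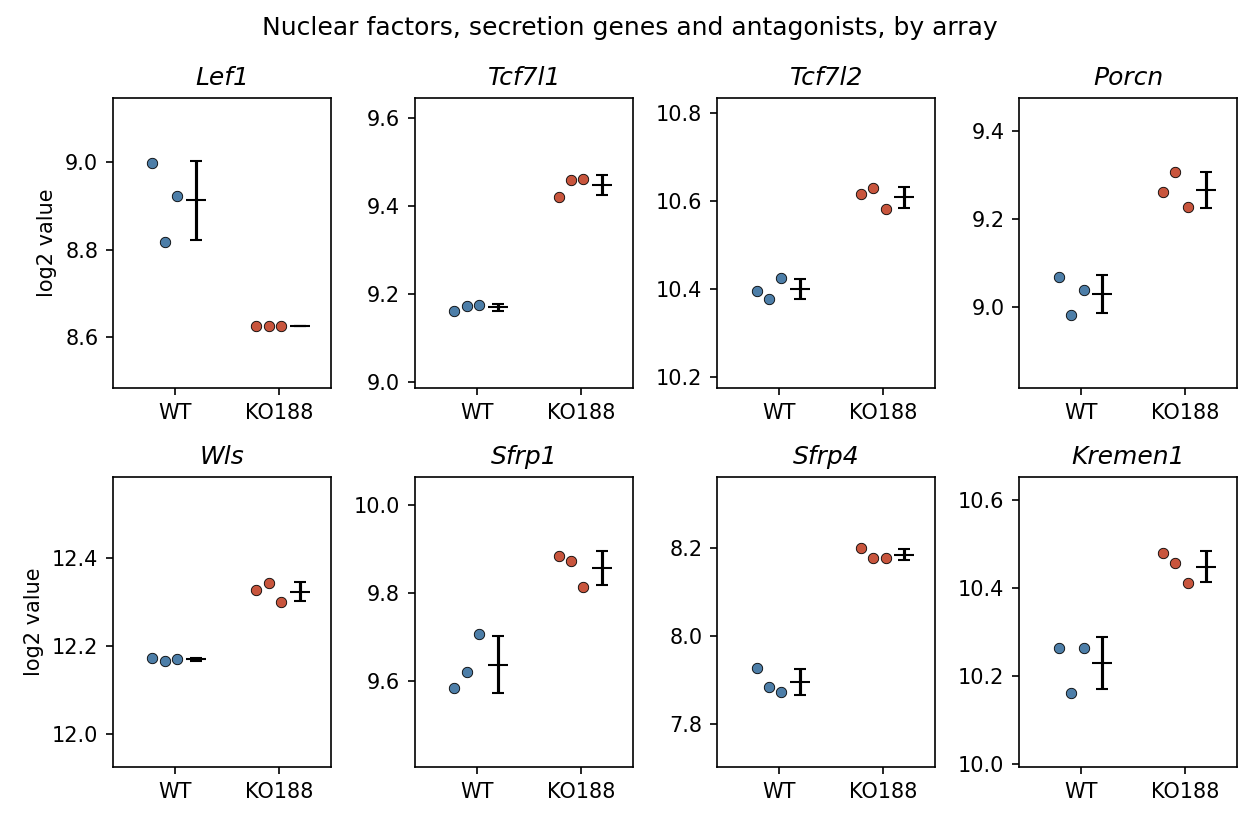
Log2 values of the nuclear factors, the secretion genes and 3 antagonist genes with Kremen1 among them are plotted by array (WT blue, KO188 red, 3 arrays each), with the group mean and SD beside the points and vertical ranges that differ between panels. Lef1 is the only one of the 8 that is lower in KO188, where its 3 arrays share 1 value, and no panel shows overlap between the groups.

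Other genes of the pathway were read from 4 lists by role with 58 measured genes. The lists were chosen with earlier results of these data known, so their called shares are only a description. Of 8 further ligand and Frizzled genes 0 passed limma's test (0 at an unadjusted p under 0.05), with changes from -0.09 to 0.06. Of 14 extracellular regulators 2 rose and 0 fell. This is 14.3% called, beside 29.8% of all tested genes and 40.9% of those above the guide, where 12 of the 14 lay. Apcdd1, an inhibitor gene, rose by 0.22 (adjusted p = 0.0021), and Tpbg, another inhibitor gene, by 0.15 (adjusted p = 0.014). The Tpbg call was lost with the arrays centred or without WT replicate 1 or 2 (highest adjusted p 0.091). Sost, the osteocyte gene of sclerostin, did not pass (-0.09, adjusted p = 0.22).

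On the cytoplasmic and nuclear list 9 of 21 genes were higher and 4 lower. All 21 lay above the guide, and the 61.9% called stand beside 40.9% of all such genes (18% higher, 23% lower). Bcl9, the gene of a beta-catenin coactivator, rose from 10.78 ± 0.04 to 11.36 ± 0.02 (SD, n = 3 each; change 0.58, adjusted p = 3.7e-05). Amer1, which encodes an Apc-binding membrane protein, rose by 0.57 (adjusted p = 4.7e-05), and the corepressor gene Tle4 by 0.40 (adjusted p = 0.00032). The rest of the calls are named after their values were seen. Tle2 (0.35), Dvl3 (0.25), Csnk1g1 (0.24), Btrc (0.17), Bcl9l (0.16) and Csnk1d (0.10) were higher. The 4 that fell were Ctnnbip1 (-0.27), an inhibitor of beta-catenin, and the kinase genes Gsk3a (-0.17), Csnk1e (-0.15) and Csnk1a1 (-0.12). Btrc and Csnk1d did not pass with the arrays centred. Btrc also did not once WT replicate 2, WT replicate 3 or KO188 replicate 3 was left out (highest adjusted p 0.063). Neither did Csnk1d without WT replicate 1 or 2 (0.062) or Ctnnbip1 without WT replicate 1 or 3 (0.071). Over all alternatives the highest adjusted p was 0.074 for Btrc and 0.17 for Csnk1d. With the arrays centred 9 of this list were lower. Of 15 genes of planar polarity and other branches 1 rose, Prickle2 (0.38, adjusted p = 0.0012), and 2 fell, Ptk7 (-0.24) and Rac1 (-0.14), which is 20% called beside 40.9% of all genes above the guide, where all 15 lay.

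Genes often cited as Wnt targets went both ways: of 16 measured, 5 rose, 6 fell and 5 did not pass, with a median of -0.04. The list was chosen with earlier results of these data known, so its called share is only a description. In it 68.8% were called, beside 29.8% of all tested genes and 40.9% of those above the guide, where 14 of the 16 lay. Those with the lowest p were Ccn5 (1.82, adjusted p = 2.9e-07, 3.53-fold), a matricellular gene, Tnfrsf11b (0.94, adjusted p = 9.0e-06), the gene of osteoprotegerin, and Id2 (-1.12, adjusted p = 2.2e-05), an inhibitor of basic helix-loop-helix factors. The others are again named after their values were seen. Bambi (0.53), Twist1 (0.47) and Jun (0.13) also rose, and Ccn4 (-0.51), Cd44 (-0.33), Fosl1 (-0.27), Gja1 (-0.18) and Ccnd1 (-0.12) also fell. Jun did not pass with the arrays centred or without any of WT replicates 1, 2 and 3 and KO188 replicates 1 and 3 (highest adjusted p 0.16). Ccnd1 did not pass with quantile normalization or on leaving out WT replicate 1, WT replicate 3, KO188 replicate 1 or KO188 replicate 3 (highest adjusted p 0.21). Many of these genes answer to other pathways as well. Myc (-0.07, adjusted p = 0.10) and Sp5 (-0.02, adjusted p = 0.72) did not pass.

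**Figure D5:**
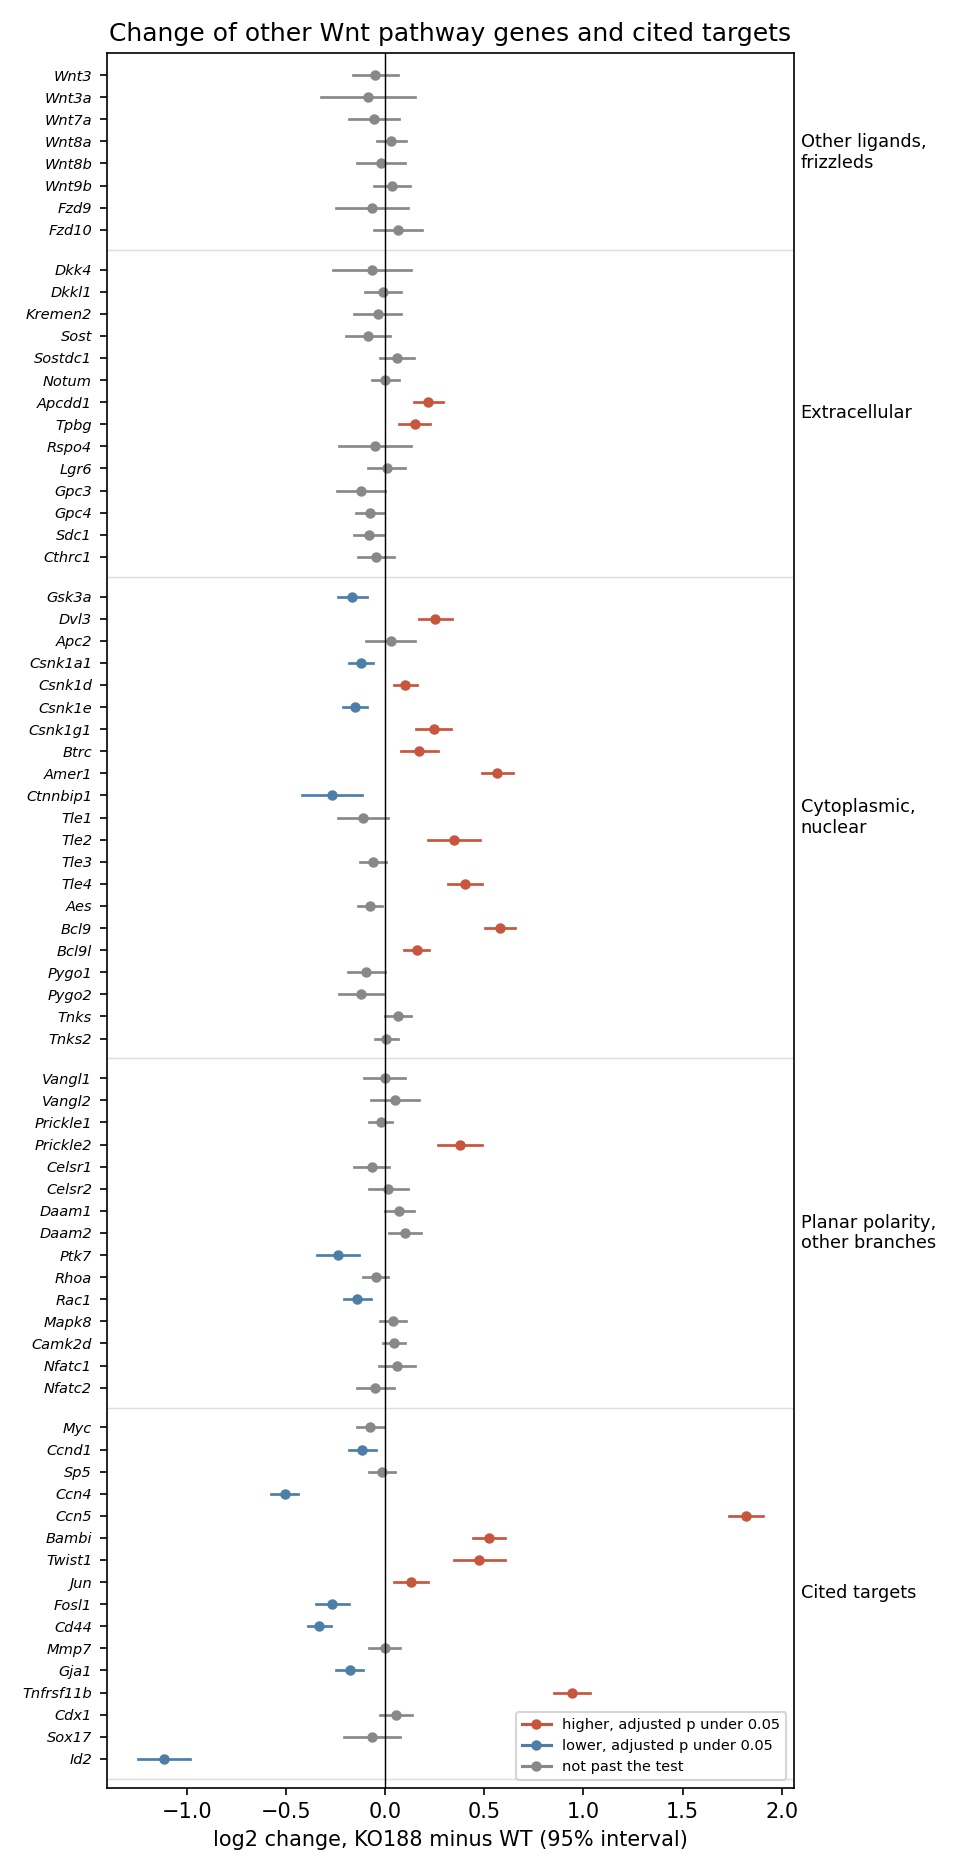
Points give the log2 change (KO188 minus WT, in log2 units) of the other pathway genes and of cited Wnt targets, with 95% intervals from limma and the colours of the test (red higher, blue lower, grey not past it). The 8 further ligands and Frizzleds all lie near 0, and the cited targets run from Id2 (-1.12) to Ccn5 (1.82).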

How the data were processed

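Bone marrow stromal cells of 2 genotypes were measured on Affymetrix arrays, 3 per group. The authors deposited log2 values per probe set, and RMA, Partek and Affymetrix Expression Console are named, without version, in the submitters' processing notes. No build is named in the labels, and the number of arrays limits the precision. Of 35556 probe sets, 23410 were annotated, 21789 with 1 symbol and 1621 with several, and the latter were left out. The probe set with the highest mean stood for a gene, which gave 19938 genes.

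Differences, KO188 minus WT, were fitted with limma 3.58.1 (R 4.3.3, lmFit and eBayes, no covariates) and adjusted by Benjamini-Hochberg over all genes, with a threshold of 0.05. The fit was tested on simulated data. Genes and lists were chosen with earlier results of these data known. Every measured Wnt gene is named, those past the test with a log2 change of at least 0.3 with each array, and of each other list up to 3 called genes with the lowest p. The 8 genes of the plot of mediators, antagonists and secretion genes were chosen after their values were seen.

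Alternatives were centring on the array median, quantile normalization, leaving out genes under the 50th percentile, the mean of probe sets, every probe set, an intensity trend, the replicate block and leaving out each array. Leaving out genes with tied values was added after seeing the data. Promoters and miRNAs come from RefSeq (GRCm38.p6).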

Additional observations from a re-analysis of the deposited data

How the results depend on the processing

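All 27 Wnt genes past the test kept their direction in every alternative tried, and 21 kept their call in all. Of the 31 that did not pass, 22 did so in all. The Wnt counts were 22 higher and 5 lower, with 19 to 21 and 5 to 6 when 1 array was left out, but 9 lower with the arrays centred on the median and 2 lower with tied genes left out, which removes genes from the test. With the arrays centred the ligands had 1 higher and 1 lower, the antagonists 1 lower, the cytoplasmic genes 0 higher and 1 lower, other extracellular genes 1 higher and 3 lower, other cytoplasmic and nuclear genes 9 lower and noncanonical genes 4 lower. With quantile normalization the ligands had 1 lower, the antagonists 1 lower, the cytoplasmic genes 1 higher, other extracellular genes 1 lower, other cytoplasmic and nuclear genes 7 lower and noncanonical genes 4 lower. With dim genes left out, 1 cytoplasmic, 2 other extracellular and 7 other cytoplasmic and nuclear genes were lower, and with a trend 1 cytoplasmic and 1 other extracellular gene. With tied genes left out, 1 ligand and 2 antagonists were higher, 1 receptor and 0 nuclear genes were lower, and the level guide was 6.79. With 1 array left out, ligands had 1 to 2 higher and 0 to 1 lower, antagonists 0 to 1 lower, cytoplasmic genes 1 to 2 higher, other extracellular genes 1 to 2 higher and 0 to 1 lower, and noncanonical genes 1 to 2 higher. Centring lowered the change of every gene by the same amount, because the array medians were higher in KO188. The cause of the other shifts was not tested.

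The labels do not say whether same-numbered arrays were paired. Correlations of their deviations were 0.018, 0.010 and -0.028, so no effect shared by same-numbered arrays was seen. With the replicate block, 17 Wnt genes were higher and 5 lower (ligands 1 higher, cytoplasmic genes 0 higher), beside 2271 and 2748 of all genes. Wnt5a, Fzd2, Ror2, Nkd2 and Dvl2 did not pass with it, nor did the other pathway genes Jun, Ccnd1, Csnk1a1 and Csnk1d.

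Changes of sign numbered 39, in 16 genes that passed in neither setting (lowest adjusted p 0.28, limma). With the arrays centred they were Wnt2 (-0.0087), Wnt5b (-0.030), Wnt9a (-0.0018), Fzd4 (-0.038), Sfrp5 (-0.0084), Dkk1 (-0.035), Rnf43 (-0.027) and Nkd1 (-0.026). With quantile normalization they were Wnt2 (-0.0015), Wnt5b (-0.052), Wnt9a (-0.017), Fzd4 (-0.048), Sfrp5 (-0.0038), Dkk1 (-0.033), Rnf43 (-0.021), Axin2 (-0.0054), Gsk3b (0.025), Ctnnb1 (0.024) and Nkd1 (-0.030). With 1 array left out the changes ran from -0.052 to 0.080 for Wnt2, -0.070 to 0.035 for Wnt2b, -0.029 to 0.052 for Wnt5b, -0.089 to 0.0077 for Wnt6, -0.0050 to 0.098 for Wnt9a, -0.021 to 0.018 for Wnt16, -0.014 to 0.031 for Fzd4, -0.042 to 0.064 for Dkk1, -0.033 to 0.014 for Rspo1, -0.071 to 0.011 for Lgr5, -0.023 to 0.037 for Rnf43, -0.027 to 0.017 for Gsk3b and -0.0062 to 0.032 for Nkd1.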

Other observations

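Identical values recurred in the deposited table. Of the 58 Wnt genes, 19, or 32.8%, had at least 2 arrays of a group at exactly the same value, beside 26.5% of all tested genes. In 3 of them, Ror1, Wif1 and Lef1, all 3 arrays of a group shared 1 value, as in 4.02% of all tested genes. Of the 19 genes 8 passed limma's test: Wnt10b, Fzd3, Lrp6, Ror2, Ryk, Sfrp4, Kremen1 and Lef1. Their group SDs may be smaller than the true spread, which was not tested.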
